A study of Mus musculus with 6 samples.

Results

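Ephrins, semaphorins and Slits are cues that tell a moving cell or axon where to go, and Eph receptors, plexins, neuropilins and Robo receptors are the proteins that read them. Ephrins stay on the cell surface, so that Eph signalling needs contact between cells and can run both ways. Class 3 semaphorins and Slits are secreted, and most other semaphorins sit in the membrane of the sending cell. In the pigment lineage these systems are best known from embryonic melanoblasts, which travel from the neural crest through the skin to the hair follicle. The guidance genes described here are all genes of these families by symbol, which gave 60 genes (9 EphA and 5 EphB receptors, 5 ephrin-A and 3 ephrin-B genes, 3 Slits, 4 Robos, 7 class 3 and 13 class 4 to 7 semaphorins, 9 plexins and 2 neuropilins) of the 21368 genes named on the array.

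The cells were melanocyte stem cells of male mice, taken from the skin as GFP-positive cells with low side scatter. Of the 6 samples, 3 came from K14-SCF Tg mice, which make extra stem cell factor (the KIT ligand) in basal keratinocytes from a keratin 14 promoter, and 3 from WT mice. What drives GFP in either genotype, the age of the mice and the number of mice per sample are not given in the labels. Nothing in the labels says that samples of a genotype came from separate mice, so the spread behind the p-values may be technical only.

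Each sample was hybridised to its own 1-colour Agilent array, and the number of arrays limits the precision. Between 78.4% and 87.1% of 55681 probes were well above background per array, and no spot was saturated. Of 13 pigment lineage markers, 12 were well above background on all 6 arrays (Tyr, Dct, Pmel, Mitf, Sox10 and Kit among them), and Oca2 was above it on none. Many markers of other skin cells were above background on all 6 arrays as well. These were 10 of 12 fibroblast, 9 of 11 keratinocyte, 8 of 11 endothelial, 8 of 11 Schwann cell and 8 of 8 leukocyte markers. Pericyte markers were above background on all arrays in 6 of 7 cases and mast cell markers in 2, with Fcer1a and Ms4a2 on none. Of all 21368 genes named on the array, 16168 had a probe above background on all 6 arrays, so these counts alone do not show which cells were present. One slide held WT replicate 1 alone, and K14-SCF Tg replicate 3 and WT replicate 3 lay in the second row of the other slide, which held all 5 remaining arrays. Because these are bulk samples, fewer cells of a type and less RNA per cell cannot be told apart.

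Levels are given as log2 of background-corrected signal relative to the 75th percentile of the same array, from the brightest tested probe of a gene. A log2 fold change is K14-SCF Tg minus WT. Levels belong to 1 probe each and are not compared between genes. The lowest level of a probe above background lay between -6.58 (K14-SCF Tg replicate 2) and -5.75 (WT replicate 3), depending on the array.

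Most guidance genes could be read in these cells, and none passed the test between the genotypes. Of all 21368 genes named on the array, 18368 cleared the background on 3 or more of the 6 arrays, and 16168 on all 6. Of the 60 guidance genes, 56 cleared it on 3 or more arrays (counted over both genotypes) and were tested. On all 6 arrays, 52 of the 60 did so. The 4 that were not tested were the Eph receptor genes Epha3 (above background on WT replicate 2 alone), Epha8 (on no array) and Ephb1 (on K14-SCF Tg replicate 3 alone), and the Slit receptor gene Robo2 (on K14-SCF Tg replicate 2 and WT replicate 3). Limma called 0 of the 56 genes at an adjusted p under 0.05, with the smallest adjusted p at 0.665, against 1 of all 18368 genes tested (0.00544%).

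At an unadjusted p under 0.05 limma counted 5 guidance genes (8.93%), against 5.42% of all genes tested. All 5 had negative log2 fold changes, where 2.56% of all genes had such a p with a negative and 2.85% with a positive fold change. They were Robo4, Slit3, Epha4, Plxna4 and Epha7. The count was 1 without WT replicate 2 and 3 without any 1 of WT replicate 1, K14-SCF Tg replicate 1 and K14-SCF Tg replicate 2. It was also 3 with slide as a block. The 3 genes without WT replicate 1 were 2 with positive and 1 with negative fold changes, as were the 3 with slide as a block. Those without K14-SCF Tg replicate 2 were 1 positive and 2 negative. With slide row in the fit they were 1 positive and 4 negative. With replicate number as a block, and also with probes averaged per gene, they were 1 positive and 3 negative. In the other alternatives all counted genes had negative fold changes.

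The genotypes did not overlap in 8 of the 56 genes (14.3%), against 10.5% of all genes tested. K14-SCF Tg lay wholly below WT in 6 of them (Robo4, Slit3, Epha4, Plxna4, Epha7 and Sema3a; 5.41% of all genes) and wholly above in 2 (Epha2 and Epha6; 5.13% of all genes). Of the 56 log2 fold changes, 23 were positive and 33 negative, with a median of -0.06, and the median over all genes was -0.01. Fold changes of 1 or more log2 units occurred in 10 genes (17.9%), against 11.3% of all genes. Of these 10, 4 were positive (6.23% of all genes) and 6 negative (5.04% of all genes). The median spread between replicates, as the SD pooled over both genotypes, was 0.58 for the guidance genes and 0.49 for all genes.

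**Figure D1:**
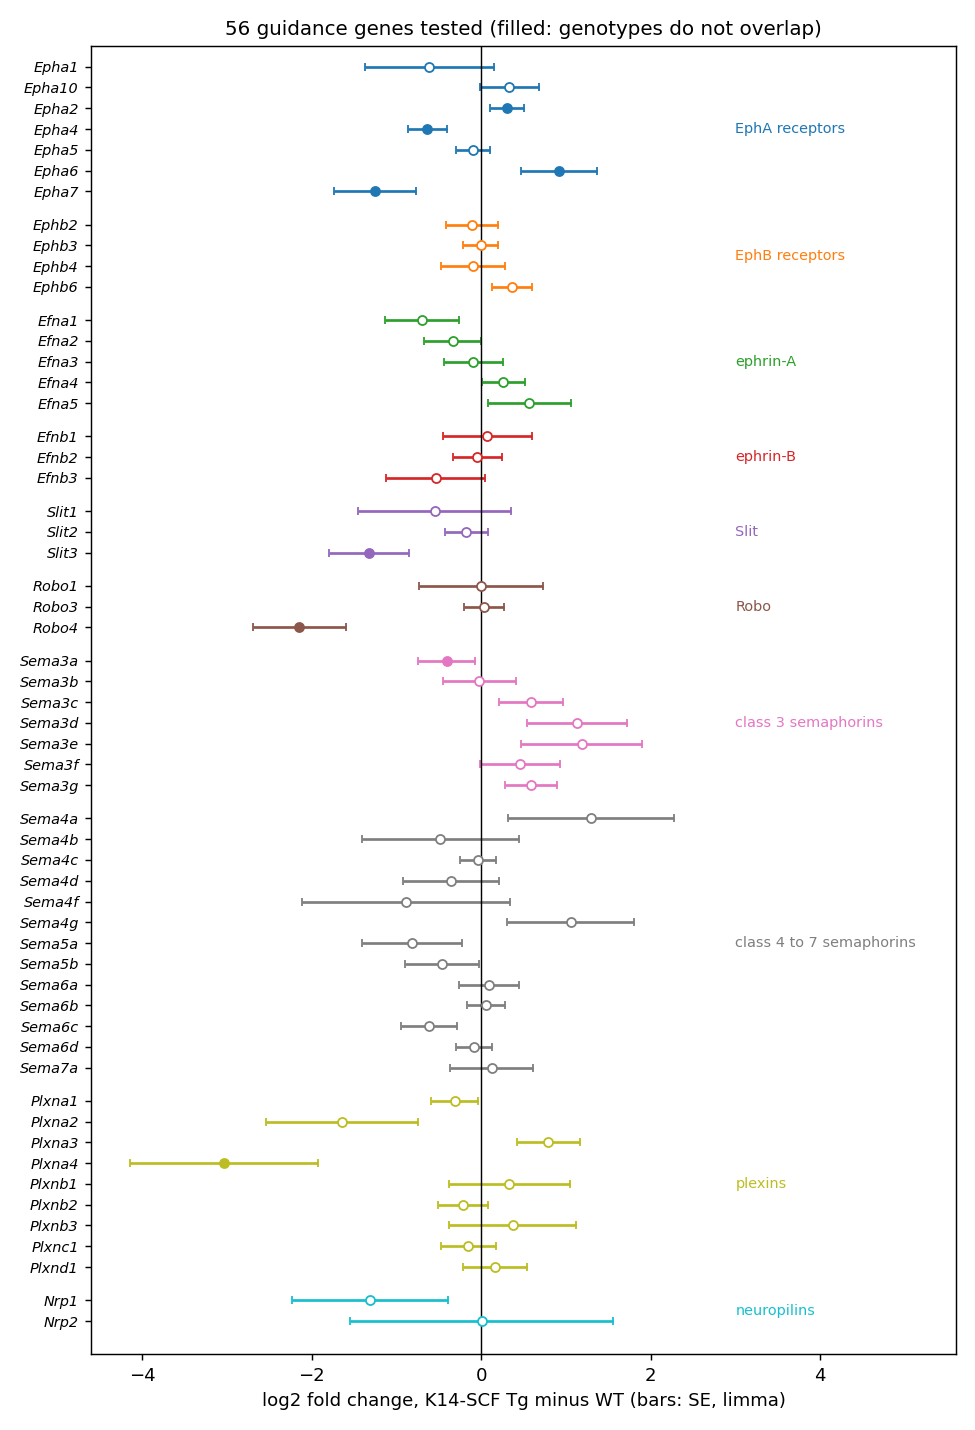
Log2 fold change (x axis, K14-SCF Tg minus WT, bars are the SE from limma) of the 56 guidance genes tested, grouped by family. Filled points mark the 8 genes whose genotypes do not overlap, 6 to the left of 0 and 2 to the right, and 0 genes passed the test.

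The Slit and Robo genes held the smallest p-values. Slits are large secreted ligands that repel cells through Robo receptors. Robo4 is the Robo receptor known from blood vessel endothelium. Its levels were -4.49, -4.13 and -5.28 on the K14-SCF Tg arrays, against -1.65, -2.37 and -3.45 on the WT arrays. All 3 K14-SCF Tg arrays lay below all 3 WT arrays, and the lowest WT array was the one in the second slide row. The log2 fold change was -2.15 with an SE of 0.55 (limma, unadjusted p = 0.00814, adjusted p = 0.665). With normexp background correction and quantile normalization together it was -1.36.

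Slit3, a secreted Slit, stood at -3.41, -2.94 and -3.66 on the K14-SCF Tg arrays, against -1.22, -1.92 and -2.88 on the WT arrays. The genotypes did not overlap, but K14-SCF Tg replicate 2 and WT replicate 3 were only a few hundredths apart. The log2 fold change was -1.33 with an SE of 0.47 (limma, unadjusted p = 0.0316, adjusted p = 0.873). In both genes WT replicate 1 was the highest and WT replicate 3 the lowest of the WT arrays.

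The promoters of these 2 genes are shown since they carry the smallest p-values of a receptor and a ligand. They run from 250 bases before to 50 bases after the start site and come from RefSeq (GRCm38.p6), a later build than the mm9 of the arrays. That of Robo4 lies at chr9:37401722-37402021 on the plus strand and that of Slit3 at chr11:35121206-35121505 on the plus strand. On both strands they were searched for the E-box CACGTG and the M-box core CATGTG, sequences that the melanocyte factor MITF is known to bind, for the ETS core CCGGAA and for TATAAA. These motifs occur in 7.15%, 14.2%, 14.9% and 13.6% of all 32851 promoters of the table. None of the 4 is in either window, so no base is in capitals and no matches overlap.
Robo4: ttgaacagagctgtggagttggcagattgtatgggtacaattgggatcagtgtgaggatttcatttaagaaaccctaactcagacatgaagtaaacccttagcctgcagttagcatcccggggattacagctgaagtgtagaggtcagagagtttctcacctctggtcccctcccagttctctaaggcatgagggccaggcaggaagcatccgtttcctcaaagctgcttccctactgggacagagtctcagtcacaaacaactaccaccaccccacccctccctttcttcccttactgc
Slit3: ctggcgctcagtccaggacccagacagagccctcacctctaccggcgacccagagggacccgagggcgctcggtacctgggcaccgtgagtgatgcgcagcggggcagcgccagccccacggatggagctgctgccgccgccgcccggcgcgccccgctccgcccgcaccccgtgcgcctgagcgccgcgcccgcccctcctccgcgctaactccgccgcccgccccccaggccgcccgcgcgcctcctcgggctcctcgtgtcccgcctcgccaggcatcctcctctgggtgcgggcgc

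The other Slit and Robo genes stayed closer to 0. Robo3, which neighbours Robo4 directly in the RefSeq gene order of chromosome 9, had levels of -5.34, -4.84 and -4.99 on the K14-SCF Tg arrays and -5.22, -5.02 and -5.02 on the WT arrays. The genotypes overlapped, with a log2 fold change of 0.03 (SE 0.24). Slit2 stood at -2.17 ± 0.28 in K14-SCF Tg and -2.00 ± 0.20 in WT (SD, n = 3 each), a log2 fold change of -0.17 (SE 0.26). Robo1, a main receptor of Slit2, had levels of -3.82, -3.54 and -4.47 on the K14-SCF Tg arrays and -4.11, -5.25 and -2.46 on the WT arrays. WT arrays spanned the K14-SCF Tg arrays, and the fold change of 0.00 had an SE of 0.73. Slit1 gave -0.55 (SE 0.90). All 3 Slits thus had negative fold changes, of which only that of Slit3 exceeded 2 SE.

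Of 11 signalling partners of Slit and Robo (the srGAP proteins, Enah, Pak1, Sos1, Gpc1, Dag1 and others), all were tested and 0 passed in either direction. Their fold changes were negative in 10 and positive in 1, with a median of -0.24, where 48.6% of all genes had positive ones. At an unadjusted p under 0.05 none of the 11 was counted, and the genotypes overlapped in the srGAP gene Srgap3 (-1.07, SE 0.68) and in Sos1 (-1.08, SE 0.83), the partners furthest from 0.

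Markers of other cells were set beside these genes. The summed linear level of the 12 fibroblast markers was 23.3, 12.2 and 12.2 times the 75th percentile on the K14-SCF Tg arrays, against 74.4, 49.0 and 29.5 times on the WT arrays. The 2 genotypes did not overlap. A linear sum is led by its brightest markers. Here these were collagen genes, foremost Col1a2 (mean level 2.63 in K14-SCF Tg and 4.50 in WT) and Col1a1 (1.41 and 3.23). Fap, Pdgfra, Mfap5 and Fbln1, the 4 markers with positive fold changes, weigh little in it. The sum therefore describes mostly collagen genes. The WT array with the highest sum (replicate 1) also had the highest Robo4 and Slit3, and the lowest (replicate 3) had the lowest. Among the K14-SCF Tg arrays the orders differed: the sum was highest on replicate 1, and Robo4 and Slit3 were highest on replicate 2. Of the 12 markers, 8 had negative and 4 positive fold changes, 0 passed, and none was absent on all arrays. An unadjusted p under 0.05 was reached by limma in 5 of the 12, each with a negative fold change, against 2.56% of all genes. Col1a2 gave -1.87 (SE 0.52) and Thy1 -1.69 (SE 0.34), and Fap gave 2.19 (SE 0.91). The 11 endothelial markers summed to 3.23, 3.44 and 2.62 on the K14-SCF Tg arrays, against 3.09, 3.82 and 6.32 on the WT arrays. These sums overlapped, and the WT array with the highest endothelial sum was the one with the lowest Robo4. Of 10 endothelial markers tested 0 had such a p. Negative fold changes occurred in 7, from Egfl7 at -2.03 (SE 0.95) to Kdr at -0.01 (SE 0.22). The 3 positive ones were Tie1 at 1.48 (SE 1.99), Emcn at 0.59 (SE 0.86) and Tek at 0.00 (SE 0.55). Erg was above background on 1 array, and none was absent on all. The part of these markers in the Robo4 and Slit3 values was not tested.

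**Figure D2:**
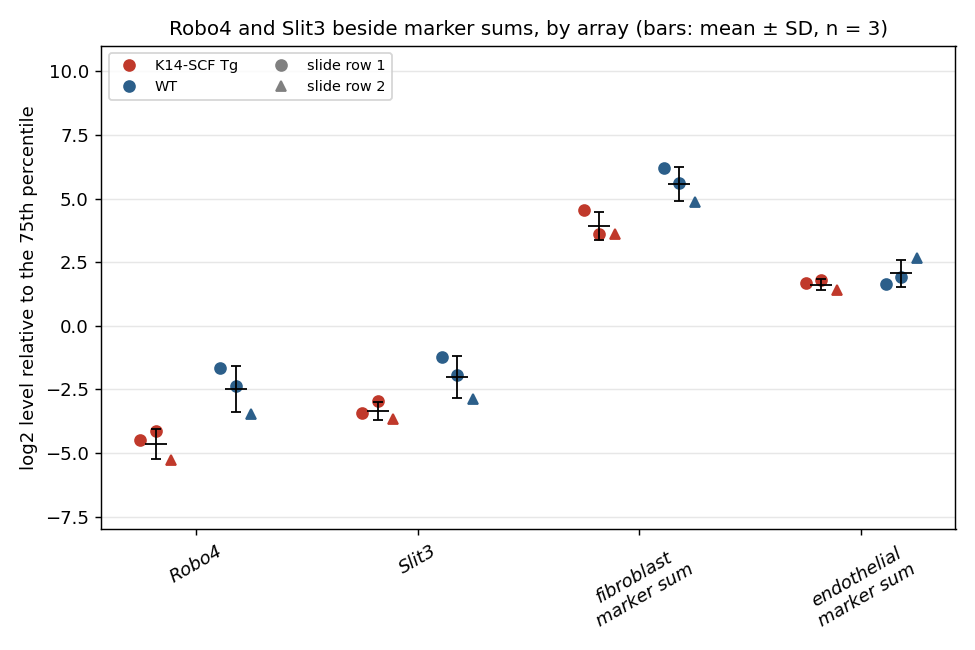
Levels of Robo4 and Slit3 and the summed levels of the fibroblast and endothelial markers (y axis, log2 relative to the 75th percentile of the array), 1 point per array, K14-SCF Tg left of WT, with mean ± SD (n = 3). Robo4, Slit3 and the fibroblast sum lie lower on all 3 K14-SCF Tg arrays, while the endothelial sums overlap.

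Among the EphA receptors, which bind ephrin-A ligands, the genes differed in sign. Epha4, which binds both ephrin classes, stood at -4.54, -4.92 and -4.51 on the K14-SCF Tg arrays, against -3.99, -4.13 and -3.93 on the WT arrays. The K14-SCF Tg arrays were all lower, by a log2 fold change of -0.64 (SE 0.23; limma, unadjusted p = 0.0323, adjusted p = 0.875), and by -0.38 with normexp and quantile normalization. It was the smallest change among the 5 genes with such p-values, and its replicates were also the closest together.

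Epha7, a receptor known for guiding axons and for a short form without the kinase, had levels of 0.59, -0.05 and 1.23 on the K14-SCF Tg arrays, against 2.62, 1.52 and 1.38 on the WT arrays. The genotypes did not overlap at this probe (-1.25, SE 0.49; limma, adjusted p = 0.893). The other Epha7 probes gave -0.56 (SE 0.87) and 0.21 (SE 0.50), both with overlap, so the 3 probes disagreed in sign. Without WT replicate 1 the fold change of the brightest probe was -0.86, and with the mean of the 3 probes it was -0.53.

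Epha2, the receptor of ephrin-A1 in many epithelia, showed the tightest replicates of all guidance genes. It stood at 2.64, 2.66 and 2.65 on the K14-SCF Tg arrays, against 2.39, 2.26 and 2.38 on the WT arrays. All 3 K14-SCF Tg arrays were higher, by 0.31 (SE 0.20; limma, adjusted p = 0.958). The SE from limma is larger than these replicates alone would give, because the fit draws each gene's variance towards that of all probes. Epha6 stood at -2.40, -3.79 and -3.87 on the K14-SCF Tg arrays, against -4.11, -4.45 and -4.26 on the WT arrays. K14-SCF Tg replicate 1 was the high one, and without it the fold change of 0.92 (SE 0.45) was 0.44. With normexp and quantile normalization it was 0.50.

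Epha1 (-0.61, SE 0.76) and Epha10 (0.33, SE 0.35), a receptor without kinase activity, overlapped between the genotypes. Epha5 hardly varied at its brightest probe, at 6.88 ± 0.08 in K14-SCF Tg and 6.97 ± 0.08 in WT (SD, n = 3 each), with a fold change of -0.09 (SE 0.20). Its second probe stood far lower, at -5.35 ± 0.63 in K14-SCF Tg and -5.39 ± 0.45 in WT (0.03, SE 0.42). That probe cleared the background on only 2 of 3 arrays per genotype. The 2 probes thus disagree on how strongly Epha5 is expressed, and the bright level rests on 1 probe.

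The EphB receptors bind ephrin-B ligands, and all 4 tested overlapped between the genotypes. Ephb3, on which ephrin-B ligands act in gut epithelium, hardly varied, at 7.27 ± 0.09 in K14-SCF Tg and 7.28 ± 0.13 in WT (SD, n = 3 each). Ephb6, a receptor without kinase activity, had levels of 0.62, 0.67 and 0.33 on the K14-SCF Tg arrays and 0.39, 0.13 and -0.01 on the WT arrays. It was the EphB gene with the smallest p (0.37, SE 0.24; limma, adjusted p = 0.958), and its second probe gave 0.06 (SE 0.23). Ephb2 stood at -1.46 ± 0.22 in K14-SCF Tg and -1.35 ± 0.45 in WT (-0.11, SE 0.31). Ephb4, the partner of ephrin-B2 in veins, gave -0.09 (SE 0.38) and, at its other probe, -0.80 (SE 0.39).

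Ephrin-A genes encode ligands held at the membrane by a lipid anchor. Efna1 had levels of 1.52, 1.00 and 0.48 on the K14-SCF Tg arrays and 1.73, 2.33 and 1.04 on the WT arrays. The arrays overlapped (-0.70, SE 0.44; limma, adjusted p = 0.957), and the fold change was -0.44 without K14-SCF Tg replicate 3 and -0.38 without WT replicate 2. Efna1, Efna3 and Efna4 follow each other on chromosome 3 in the RefSeq gene order with no protein-coding gene between them. Their fold changes were -0.70, -0.09 (SE 0.35) and 0.26 (SE 0.26), and the second Efna3 probe gave 0.12 (SE 0.37). The genotypes overlapped in each, so neither a shared nor an opposite direction of the neighbours can be read from these signs. Efna2 gave -0.34 (SE 0.34) and Efna5 0.57 (SE 0.49).

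Ephrin-B genes encode transmembrane ligands, and in chick embryos ephrin-B has been linked to the path that melanoblasts take under the skin. Efnb2 stood at 1.03, 1.04 and 1.27 on the K14-SCF Tg arrays and 0.72, 1.59 and 1.15 on the WT arrays. The WT arrays spanned the K14-SCF Tg arrays, with a fold change of -0.04 (SE 0.29). Efnb1 gave 0.07 (SE 0.52). Efnb3 split by slide row in both genotypes, at -1.40, -0.53 and 0.68 on the K14-SCF Tg arrays and -0.14, -0.21 and 0.70 on the WT arrays, where the last value of each genotype is the array in the second row (-0.53, SE 0.59). The fold change was -0.04 without K14-SCF Tg replicate 1, -1.08 without K14-SCF Tg replicate 3 and -0.24 without WT replicate 3.

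Of 18 signalling partners of Eph receptors and ephrins, 15 were tested and 0 passed in either direction, with a median of 0.04. At an unadjusted p under 0.05 limma counted 1 of the 15, near the 5.42% of all genes tested. It was the Ras GTPase activator Rasa1, which binds Eph receptors (-1.06, SE 0.36; limma, adjusted p = 0.863).

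**Figure D3:**
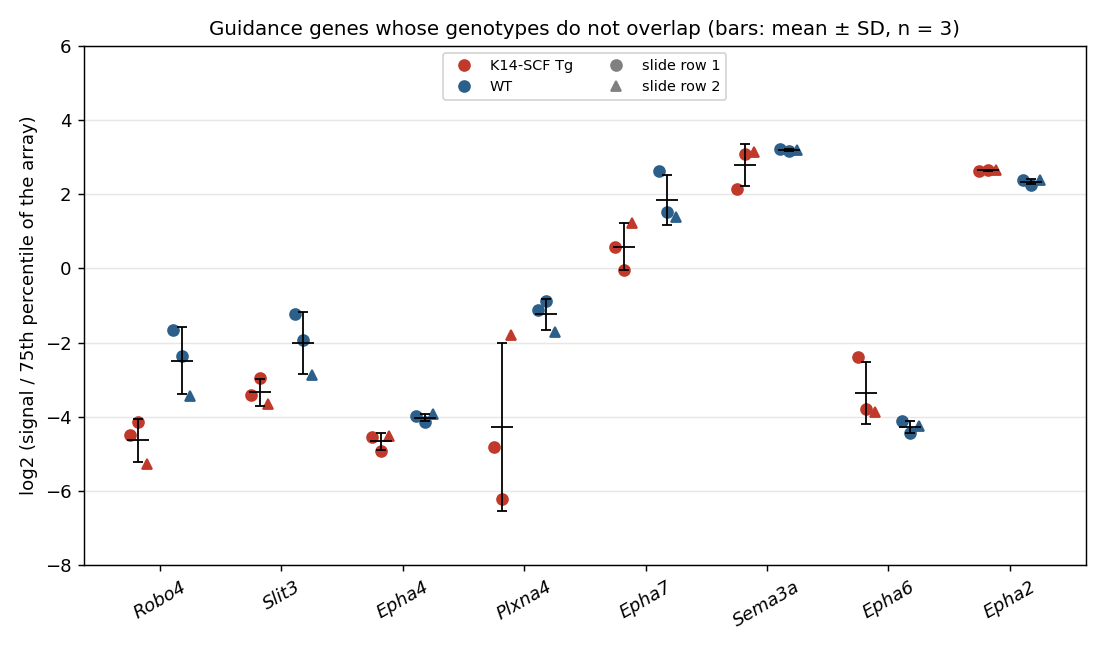
Levels (y axis, log2 of signal over the array's 75th percentile) of the 8 guidance genes whose genotypes do not overlap, 1 point per array, K14-SCF Tg left of WT, with mean ± SD (n = 3); triangles are arrays of slide row 2. For Slit3, Plxna4 and Sema3a the closest K14-SCF Tg array lies within 0.1 of the closest WT array.

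Class 3 semaphorins are secreted and mostly act through a neuropilin joined to a class A plexin. Of the 7 genes, 5 had positive and 2 negative fold changes, with a median of 0.59, and 0 passed. Sema3d had the smallest p of the class, at -1.31, -1.14 and -0.92 on the K14-SCF Tg arrays and -0.99, -3.24 and -2.53 on the WT arrays. WT replicate 1 lay among the K14-SCF Tg arrays and the other WT arrays below them (1.13, SE 0.59; limma, adjusted p = 0.938). It was 1.77 without WT replicate 1 (limma, adjusted p = 0.574) and 0.64 without WT replicate 2. Sema3e, which binds plexin D1 without a neuropilin, stood at -4.66, -5.26 and -5.74 on the K14-SCF Tg arrays and -5.53, -5.74 and -7.95 on the WT arrays. WT replicate 3 was not above background, and the fold change of 1.19 had an SE of 0.71. Without that array it was 0.42, and with normexp and quantile normalization 0.34. Sema3c gave 0.59 (SE 0.38) with overlap. Its other probe gave 1.75 (SE 0.66) without overlap, where WT replicate 3 was again not above background.

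Sema3g (0.59, SE 0.31) and Sema3f (0.46, SE 0.47), a ligand of neuropilin 2, were also positive with overlap. Sema3a, the classic repellent read through neuropilin 1, had levels of 2.13, 3.08 and 3.14 on the K14-SCF Tg arrays, against 3.21, 3.16 and 3.20 on the WT arrays. K14-SCF Tg replicate 1 was low, and without it the fold change of -0.41 (SE 0.33) was -0.08. Its other probe gave -0.85 (SE 0.49), also without overlap and also lowest on K14-SCF Tg replicate 1. Sema3a and Sema3d are direct neighbours on chromosome 5, and their fold changes differed in sign. The sign of Sema3a rested mostly on 1 array and the genotypes overlapped in Sema3d. Neither a shared nor an opposite direction can therefore be read from these signs. Sema3b gave -0.02 (SE 0.43).

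Class 4 to 7 semaphorins are bound to the membrane. Among the 13 genes, 5 had positive and 8 negative fold changes, with a median of -0.08, and the genotypes overlapped in all 13. Sema7a, carried by a lipid anchor and known in human melanocytes as a ligand of plexin C1 and of beta-1 integrin, stood at -4.49, -2.92 and -4.01 on the K14-SCF Tg arrays and -4.44, -3.46 and -3.90 on the WT arrays (0.12, SE 0.49). Sema4d, the ligand of plexin B1, had -0.86, -1.10 and -2.70 on the K14-SCF Tg arrays and -0.84, -1.74 and -1.01 on the WT arrays. K14-SCF Tg replicate 3 was the low array, with a fold change of -0.36 (SE 0.56). Sema6c had the smallest p of these classes (-0.61, SE 0.33; limma, adjusted p = 0.946), and its other probe gave -0.08 (SE 0.25). Without K14-SCF Tg replicate 3 the fold change was -0.32.

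The largest fold changes of the membrane semaphorins came with wide errors. Sema4a, known from T cells, gave 1.30 (SE 0.98), where WT replicate 1 was its lowest array and not above background. Sema4g gave 1.06 (SE 0.75). Sema4f (-0.89, SE 1.22) cleared the background on 2 of 3 arrays per genotype. Sema5a, which carries thrombospondin repeats, gave -0.82 (SE 0.59) with K14-SCF Tg replicate 3 as its lowest array, and its relative Sema5b gave -0.46 (SE 0.44). Sema6a, a ligand of plexins A2 and A4, gave 0.09 (SE 0.35) and Sema6b 0.06 (SE 0.23). Sema4c, a ligand of plexin B2, varied little, at 7.31 ± 0.10 in K14-SCF Tg and 7.35 ± 0.11 in WT (-0.04, SE 0.21). Sema6d also varied little at its brightest probe (5.35 ± 0.04 in K14-SCF Tg and 5.44 ± 0.14 in WT), while its other probe gave 0.27 (SE 0.31) against -0.08 (SE 0.21) at the brightest.

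The E-box CACGTG was found in 5 of 69 promoters (7.25%) of the 53 guidance genes that the RefSeq table holds, beside 7.15% of all promoters. It is shown for the 3 tested genes among those 5, with 12 bases on each side and the motif in capitals. The windows lie at chr2:124089934-124089963 (Sema6d), chr5:14025287-14025316 (Sema3e) and chr7:80198474-80198503 (Sema4b), on the plus strand of GRCm38.p6.
Sema6d: cgagcgcagaagCACGTGggctaagggggt
Sema3e: gatgcggcgaggCACGTGggctggagacac
Sema4b: ggtgcggcggccCACGTGaccaccttccct

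Plexins carry the semaphorin signal into the cell. Plxna4, a partner of neuropilins for class 3 semaphorins, had the largest fold change of all guidance genes. It stood at -4.82, -6.21 and -1.79 on the K14-SCF Tg arrays, against -1.12, -0.88 and -1.70 on the WT arrays. K14-SCF Tg replicate 3 lay beside the WT arrays and the other K14-SCF Tg arrays far below (-3.04, SE 1.11; limma, unadjusted p = 0.0343, adjusted p = 0.881). The lowest of them, replicate 2, was near the lowest level above background on that array (-6.58). The other Plxna4 probe gave -0.20 (SE 1.53) with overlap. The mean of both probes gave -1.62, and leaving out K14-SCF Tg replicate 2 gave -2.07. Plxna2 gave -1.64 (SE 0.90), with K14-SCF Tg replicate 3 at -5.44 as its lowest array. Plxna3 gave 0.79 (SE 0.37), with only 1 of its 3 WT arrays clear of the background, and Plxna1 gave -0.31 (SE 0.28).

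Plxnc1, the receptor of Sema7a, was at 1.95, 2.60 and 1.82 on the K14-SCF Tg arrays and 2.25, 2.62 and 1.95 on the WT arrays. The genotypes overlapped (-0.15, SE 0.32), with -0.03 (SE 0.31) at the other probe. Plxnb1, the receptor of Sema4d, stood at -0.78 ± 0.57 in K14-SCF Tg and -1.12 ± 1.34 in WT (0.33, SE 0.72), and Plxnb2 at -0.12 ± 0.33 in K14-SCF Tg and 0.09 ± 0.32 in WT (-0.21, SE 0.29). Plxnd1, the receptor of Sema3e, gave 0.16 (SE 0.38). For both ligand and receptor pairs known from melanocytes, Sema7a with Plxnc1 and Sema4d with Plxnb1, each fold change was thus smaller than its SE.

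Neuropilins bind class 3 semaphorins and also vascular growth factors. Nrp1 had levels of -5.39, -3.28 and -3.37 on the K14-SCF Tg arrays and -1.40, -2.42 and -4.29 on the WT arrays. WT replicate 1 was highest and K14-SCF Tg replicate 1 lowest, with overlap in between (-1.31, SE 0.92; limma, adjusted p = 0.972). The fold change was -0.63 without K14-SCF Tg replicate 1, -0.66 without WT replicate 1 and -2.11 without WT replicate 3. As in Robo4, Slit3 and the fibroblast sum, WT replicate 1 was the highest and WT replicate 3 the lowest of the WT arrays. Among the K14-SCF Tg arrays Nrp1 was lowest on replicate 1, where the fibroblast sum was highest. The part of fibroblast markers in the Nrp1 values was not tested. Nrp2 had the widest spread of all guidance genes, at 0.12, -4.65 and 0.75 on the K14-SCF Tg arrays and -1.93, 0.29 and -2.17 on the WT arrays. Its fold change was 0.01 (SE 1.55), and the other probe gave 1.37 (SE 1.28) with other arrays at the extremes.

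Of 21 signalling partners of plexins and neuropilins, all tested, 0 passed in either direction and 8 had positive fold changes. At an unadjusted p under 0.05 limma counted 1 of the 21, near the 5.42% of all genes tested. It was the adhesion gene L1cam, which joins neuropilin 1 in the Sema3a receptor (0.90, SE 0.29; limma, adjusted p = 0.824). Of 14 netrin and RGM guidance genes tested, likewise 0 passed, and 0 had an unadjusted p under 0.05 by limma.

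Some guidance genes split by the position of the array on the slide in both genotypes. The 2 arrays of the second slide row lay wholly above or below the other 4 in 9 of the 56 genes (16.1%), 5 above and 4 below, against 23.8% of all genes tested. Sema4b, a membrane semaphorin, had the widest gap of these, at 1.55, 0.29 and -1.08 on the K14-SCF Tg arrays and 1.37, 1.68 and -0.86 on the WT arrays, where the last array of each genotype is in that row. The row mean differed by -2.20 (second row minus first), while the genotypes gave -0.48 (SE 0.93). Plxnb3 differed by 1.52 between rows, mostly through K14-SCF Tg replicate 3, at -3.37, -3.45 and -0.94 on the K14-SCF Tg arrays and -3.57, -2.73 and -2.58 on the WT arrays. Both rows hold both genotypes, and the row and the replicate number 3 cannot be told apart.

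**Figure D4:**
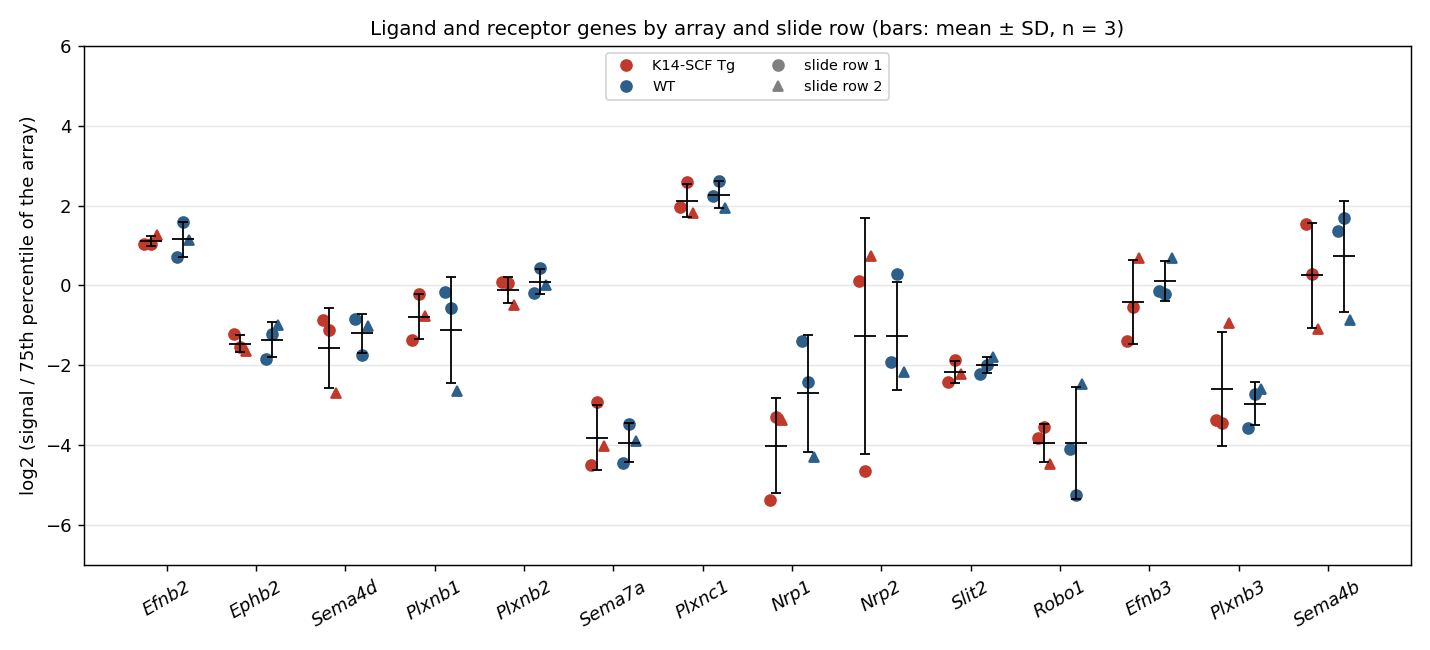
Levels (y axis, log2 of signal over the array's 75th percentile) of ligand and receptor genes, 1 point per array, K14-SCF Tg left of WT, with mean ± SD (n = 3); triangles are arrays of slide row 2. The genotypes overlap in all 14 genes, Nrp2 spreads from -4.65 to 0.75, and both row 2 arrays of Sema4b lie below the rest.

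Several tested probes were there for 15 guidance genes, and in 7 of these they disagreed in sign (Efna3, Efnb2, Epha10, Epha5, Epha7, Plxnd1 and Sema6d). For Robo4, Slit3 and Epha4 only 1 probe each was named through its RefSeq accession.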

How the data were processed

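Melanocyte stem cells of 3 K14-SCF Tg and 3 WT samples were measured on 1 array each. Per the file headers, the intensity values are processed signals from Agilent Feature Extraction 10.7.1.1, background-subtracted and detrended within the array, on a design of build mm9, and the median signals of spot and background were used for an alternative. The flags per spot (other values of 0 or 1) were taken as deposited. The authors' deposited value table holds a linear ratio, the processed signal over 1 constant per array (1404.64 to 1678.04, column medians 0.169 to 0.188), with 100% of values above 1 within 1% of it. It is not centred per gene, and the definition of the constant is not stated in the labels or files.

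Spots of a probe were averaged on the log2 scale without outlier spots, a probe was above background where at least 50% of its spots were, and each array's 75th percentile was subtracted. Probes above background on at least 3 of 6 arrays were tested (47709, with 3 more left out as outliers). RefSeq accessions named 28331 of 29786 probes through a gene table of GRCm38.p6, and 1455 did not match. Limma 3.58.1 in R 4.3.3 compared the genotypes (2-sided, no covariates, Benjamini-Hochberg over all tested probes, threshold 0.05), with 1.91 prior and 4 residual degrees of freedom. On simulated data for this comparison, over 18368 genes, the share recovered was 0% for changes of 2-fold, 12.4% for 4-fold, 38.8% for 8-fold, and for 16-fold it was 54.4%.

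The members, lists, tests and alternatives were chosen with earlier results of these data known. The rule for named genes took the smallest p of each family, up to 6 genes per direction without overlap, genes above background on at least 2 of 3 arrays of 1 genotype and on 0 of 3 of the other (none), 12 genes with known partners or roles in melanocytes, and the 3 with the largest gap between slide rows. Other genes were printed to account for every member and were chosen after their values were seen.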

Additional observations from a re-analysis of the deposited data

How the results depend on the processing

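The 0 guidance genes called stayed 0 in all 19 alternatives, and their median log2 fold change lay between -0.15 and -0.02. Slide as a block and leaving out WT replicate 1, the only array of its slide, gave the same fold changes, so these 2 alternatives are not separate checks. The count at an unadjusted p under 0.05 by limma (5) was 3 with slide as a block and between 1 and 4 with 1 array left out. Over all 18368 genes it was 995 in the main setting, 981 with slide as a block and 829 to 1135 with 1 array left out. The count without overlap (8 of 56) was between 12 and 15 with 1 array left out. It was 20 without both arrays of slide row 2, an alternative chosen after seeing the data. Fewer arrays also raised the count over all 18368 genes, from 1935 to between 3321 and 4242 with 1 array left out. Without slide row 2 it was 6665. The higher member counts are therefore not read as a result about the guidance genes. With the replicate block the counts were 0 called and 4 at an unadjusted p under 0.05. The numbers share no stated source: same-numbered samples deviated together with correlations of 0.02, 0.05 and 0.13, and K14-SCF Tg replicate 1 correlated best with WT replicate 2.

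Of the 27 named genes, 17 kept their direction in every alternative, Robo4 between -2.63 and -1.36, and 0 passed in any. Those that turned had fold changes under 0.50 in size. The cause was not tested. Efnb2 turned to 0.00337 with quantile normalization, 0.0953 with normexp and 0.0602 with the mean of the probes. Nrp2 turned to -0.0496 with quantile normalization, -0.0778 with median centring, -0.32 with slide as a block and -0.53 with array weights. Robo1 turned to 0.00055 with the deposited values and 0.27 with array weights, and Sema7a to -0.13 with slide as a block. Without slide row 2, Nrp2 turned to -1.44, Ephb2 to 0.16, Plxnb1 to -0.43, Plxnb3 to -0.26, Robo1 to 1.00 and Sema4d to 0.31. With 1 array left out, signs turned within these ranges: Efnb2 -0.26 to 0.18, Ephb2 -0.36 to 0.0703, Nrp2 -0.99 to 1.70, Plxnb1 -0.43 to 0.81, Plxnb3 -0.45 to 0.81, Plxnc1 -0.39 to 0.023, Robo1 -0.66 to 0.74, Sema4b -1.28 to 0.19, Sema4d -0.71 to 0.22 and Sema7a -0.32 to 0.47. Normexp was run on median signals, since the files hold no mean signals.

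At 3 arrays per genotype, changes of 2-fold were not recovered in simulated data, so differences of that size were not detectable here.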
